A study of Mus musculus with 4 samples.

Results

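The 40 genes described here are interferon-stimulated antiviral genes, taken from a fixed list of names and followed in every deposited count table of the series. Of the 40 names, 37 were found in at least 1 of the 4 tables and 35 in all 4, among 16342 gene names in any table. Oas3 and Ifi44 were not listed in the table of week 0 replicate 1. The other 3, Mx1 and Lgals3bp2 among them, were found in no table and have no values. The libraries are single-cell RNA-seq of live nucleated cells sorted for CD11b, a surface integrin of microglia and other myeloid cells, from the corpus callosum, the large white matter tract between the hemispheres. All came from male C57BL/6 mice labelled as 13 weeks old. The week 0 group (2 libraries) was not treated. The week 5 group (2 libraries) was treated with cuprizone, a copper chelator that kills oligodendrocytes and strips myelin from this tract. The labels do not say whether the libraries of a week came from separate animals or pools, so the p-values measure the spread between these libraries, which may be technical.

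Type I and type III interferons bind cell-surface receptors whose JAK kinases phosphorylate STAT proteins. With IRF9 these form the ISGF3 complex, which enters the nucleus and binds interferon-stimulated response elements in the promoters of a large set of genes. Their products bind or degrade viral RNA, block translation, hold virions at membranes, starve viruses of nucleotides, or feed back on the pathway. In the brain, microglia are both a source and a target of type I interferon, and small groups of interferon-responsive microglia have been described in ageing, injury and demyelination.

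Promoters of 6 of these genes are shown because the list is defined by this response: the 4 genes with the highest level at week 5 among those that rose and held the searched motif, and the neighbouring pair Ifit3 and Ifit3b. Each runs from 250 bases before to 50 bases after the start of the gene, 5′ to 3′ on the gene's strand, from RefSeq on GRCm38.p6. Capitals mark the motif GAAANNGAA, the core of the response element, or its reverse complement TTCNNTTTC; overlapping matches run together.
Bst2: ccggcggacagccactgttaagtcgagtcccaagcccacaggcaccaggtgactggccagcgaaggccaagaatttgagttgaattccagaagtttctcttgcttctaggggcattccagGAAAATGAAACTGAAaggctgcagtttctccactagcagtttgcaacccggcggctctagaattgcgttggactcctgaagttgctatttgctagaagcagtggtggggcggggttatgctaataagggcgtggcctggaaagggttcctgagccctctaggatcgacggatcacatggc
Ifitm3: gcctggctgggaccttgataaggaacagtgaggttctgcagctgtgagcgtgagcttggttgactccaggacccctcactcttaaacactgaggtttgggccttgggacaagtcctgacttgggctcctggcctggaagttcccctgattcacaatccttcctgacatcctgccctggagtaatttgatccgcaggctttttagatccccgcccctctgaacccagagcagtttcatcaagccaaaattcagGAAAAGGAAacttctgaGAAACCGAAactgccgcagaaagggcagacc
Slfn8: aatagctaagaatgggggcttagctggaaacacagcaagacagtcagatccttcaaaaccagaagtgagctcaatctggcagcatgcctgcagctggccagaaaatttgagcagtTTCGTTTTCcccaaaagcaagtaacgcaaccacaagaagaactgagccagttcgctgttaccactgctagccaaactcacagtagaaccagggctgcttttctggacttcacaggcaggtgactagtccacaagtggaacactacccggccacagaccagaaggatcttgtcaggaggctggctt
Slfn5: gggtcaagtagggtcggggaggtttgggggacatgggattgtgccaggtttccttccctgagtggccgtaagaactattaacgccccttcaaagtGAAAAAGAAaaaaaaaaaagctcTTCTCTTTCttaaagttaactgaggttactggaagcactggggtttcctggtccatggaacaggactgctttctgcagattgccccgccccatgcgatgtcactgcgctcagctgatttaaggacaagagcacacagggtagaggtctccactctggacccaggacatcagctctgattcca
Ifit3: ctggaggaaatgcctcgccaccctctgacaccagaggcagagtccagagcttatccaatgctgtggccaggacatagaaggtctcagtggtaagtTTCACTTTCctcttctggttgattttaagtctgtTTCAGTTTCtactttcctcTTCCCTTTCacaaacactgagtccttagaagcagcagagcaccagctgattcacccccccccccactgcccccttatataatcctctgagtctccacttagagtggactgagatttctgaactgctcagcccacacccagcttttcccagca
Ifit3b: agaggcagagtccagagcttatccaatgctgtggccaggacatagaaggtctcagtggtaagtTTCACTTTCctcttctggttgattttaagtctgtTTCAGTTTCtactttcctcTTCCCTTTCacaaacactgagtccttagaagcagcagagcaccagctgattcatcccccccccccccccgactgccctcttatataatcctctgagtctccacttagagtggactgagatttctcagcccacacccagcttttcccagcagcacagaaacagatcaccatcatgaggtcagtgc
The Bst2 window lies at chr8:71537423-71537722 on the minus strand and holds 2 overlapping matches. The Ifitm3 window, at chr7:141010695-141010994 on the minus strand, also holds 2. Slfn8 (chr11:83020673-83020972, minus strand) holds 1 match and Slfn5 (chr11:82951852-82952151, plus strand) holds 2. Ifit3 (chr19:34583279-34583578, plus strand) and Ifit3b (chr19:34607707-34608006, plus strand) hold 3 matches each. Of the 37 genes, 30 had an entry in the promoter table, and 15 of these (50%) held the motif on either strand in at least 1 promoter. Genes without an entry, among them Ifi27l2a, Parp14 and Rtp4, were not searched, so they could not be among those shown. Over all 27025 genes in that table the share was 9.76%. A match describes these letters and is not a measured binding site.

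The 4 tables held 4000 barcodes in all, 1000 each, with totals from 2415001 to 6559032 unique molecular identifiers (UMIs, 1 for each captured transcript) per library. After removal of 272 barcodes with fewer than 500 genes or more than 10% mitochondrial UMIs and of 21 called doublets, 3707 cells were clustered into 10 clusters. In all, 6 barcodes were found in more than 1 library. The 6 clusters that passed the marker rule for microglia held 3299 cells (901 and 900 at week 0, 691 and 807 at week 5) and are called microglia-like; their median UMIs per cell were 1500 and 3912.5 at week 0 and 4973 and 2125 at week 5, so depth did not separate the weeks. Of these cells, the larger of 2 clusters led by Gm43221 held 528 and 104 cells at week 0 and 166 and 265 at week 5, and the smaller 156 and 41, then 40 and 91. The clusters led by Fam110a and Slc2a5 held mostly week 0 cells, and those led by Rtp4 and Ccl4 mostly week 5 cells. A cluster of 271 cells led by Apoc1, Spp1 and Fabp5 (1, 0, 223 and 47 cells in the 4 libraries) had no microglia marker and 1 monocyte marker, Fn1, among its 10 leading genes, stayed unnamed, and was kept out of the class. That rule of naming was settled after the cells were seen, so the comparison of the weeks is also given with this cluster included. Summed border-associated macrophage markers in the microglia-like cells were 420 and 278 CPM (counts of the gene per 1000000 UMIs) at week 0 and 287 and 309 at week 5. Summed monocyte markers were 19.4 and 21.7 CPM at week 0 and 71.7 and 49.3 at week 5, with 3 of 11 markers at 0 in each library. Within that list Fn1 (1, 0, 88 and 30 UMIs), Ms4a4c (7, 11, 72 and 48 UMIs) and Plac8 (3, 5, 24 and 10 UMIs) had both week 5 levels well above both week 0 levels, S100a4 and Hp had both below, and of the defining genes Ly6c2 had 0, 0, 0 and 1 UMIs and Ccr2 8, 32, 8 and 14. Neutrophil markers stood at 298 CPM in week 0 replicate 2 and at 0.45, 0.927 and 1.46 CPM in the other libraries.

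Cuprizone and control microglia were first compared on counts summed per library over all microglia-like cells. Interferon-stimulated genes were higher at week 5 throughout the list. Of the 35 that passed the filter on low counts, 30 rose and 0 fell in edgeR's quasi-likelihood test at an adjusted p under 0.05. Across all 10748 genes tested, 2.85% were called higher and 0.419% lower. All 35 had both week 5 values above both week 0 values, against 17.9% of all genes tested. The median log2 fold change of the 35 was 2.42 (also 2.42 with Ifi44, which had no UMI at week 0, set to its lower bound), against -0.01 over all genes tested. Their summed level was 922 and 946 CPM at week 0 against 3426 and 2783 CPM at week 5, in CPM scaled by TMM factors, the scale of all levels per library below unless stated. Oas3 and Ifi47 did not pass the filter. Of the 35 genes, 29 were higher in week 5 replicate 1 than in week 5 replicate 2, and 16 were higher in week 0 replicate 1 than in week 0 replicate 2. The same counts over all genes tested are not given, so these describe the list only. Without week 0 replicate 2, 189 genes were called higher and 17 lower, that is 1.71% and 0.154% of those tested, among them 25 of 37 of these genes, all higher. With each cell thinned to 1000 UMIs, 18 of 30 were called higher, against 1.1% of 8270 genes.

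**Figure D1:**
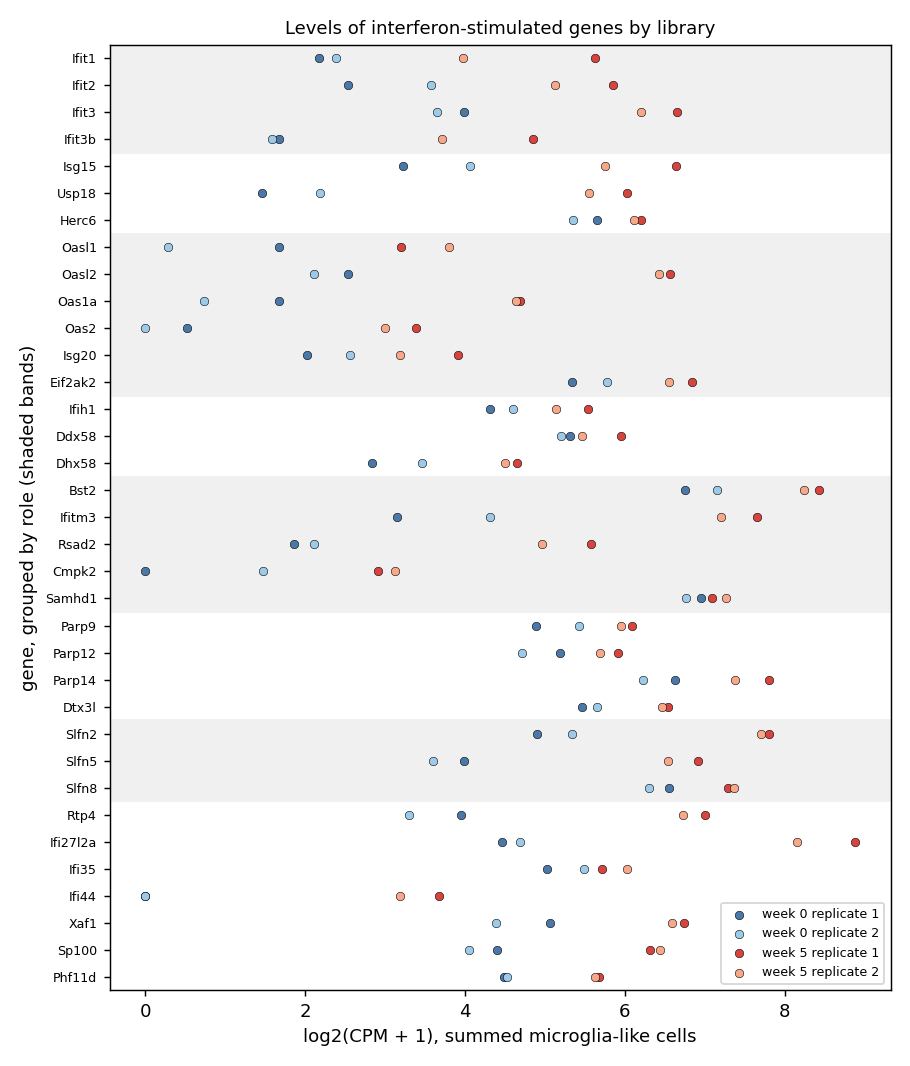
Level of each of 35 interferon-stimulated genes in the summed microglia-like cells, as log2(CPM + 1) on the horizontal axis, with 1 point per library and genes grouped by role in shaded bands. Both week 5 points lie to the right of both week 0 points for all 35 genes, and the 2 week 0 points of Ifi44 coincide at 0.

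The IFIT genes encode RNA-binding proteins that recognise foreign RNA ends and block its translation, and all 4 rose. Ifit3, a partner of Ifit1 that steadies its hold on RNA, stood at 14.9 and 11.6 CPM at week 0 against 99.9 and 72.5 CPM at week 5, a log2 fold change of 2.74 (SE 0.24, edgeR adjusted p = 3.2e-08). Ifit1 stood at 3.51 and 4.22 CPM at week 0 against 48.3 and 14.7 CPM at week 5 (log2 fold change 2.99, SE 0.44). The week 5 replicates of Ifit1 were thus further apart than those of Ifit3, although both lay above week 0. Ifit2 went from 4.83 and 10.9 to 56.8 and 33.8 CPM, and Ifit3b from 2.19 and 2.00 to 27.7 and 12.1 CPM. Without the Rtp4-led cluster the calls of Ifit1 (adjusted p = 0.191) and Ifit3b (adjusted p = 0.0878) were lost.

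In the ISG15 pathway, which couples a ubiquitin-like protein to other proteins, 2 of 3 genes rose. Isg15, the modifier itself, had 8.33 and 15.8 CPM at week 0 against 98.6 and 53.0 CPM at week 5 (log2 fold change 2.57, SE 0.29, edgeR adjusted p = 2.2e-06). Usp18, the protease that removes ISG15 and also restrains the interferon receptor, had 1.75 and 3.55 CPM at week 0 against 64.3 and 46.0 CPM at week 5. Its log2 fold change of 4.23 (SE 0.33) was among the largest of the list. Herc6, an ISG15 ligase in mouse, was expressed in both weeks, with 49.1 and 39.8 CPM at week 0 against 72.8 and 68.0 CPM at week 5, and missed the threshold (log2 fold change 0.68, SE 0.20, edgeR adjusted p = 0.066), but was called with the same ceiling of genes per cell in all libraries (adjusted p = 0.0213) and without the 2 Gm43221-led clusters (adjusted p = 0.0346).

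Large relative changes were seen in the OAS family, whose active members make a second messenger that switches on RNase L. Of 6 tested genes in the group on RNA decay, 5 rose. Oasl2 had 4.82 and 3.33 CPM at week 0 against 94.0 and 85.0 CPM at week 5 (log2 fold change 4.52, SE 0.27, edgeR adjusted p = 9.8e-11). Oas1a had 2.19 and 0.666 CPM at week 0 against 24.8 and 23.9 CPM at week 5 (log2 fold change 4.29, SE 0.44). Both genes were near the limit of detection without treatment, with 26 and 8 UMIs over the week 0 libraries. Oas2 had 1 UMI at week 0 and 48 at week 5, a ratio of 53.3 per UMI sequenced with an exact 95% interval of 9.13 to 2150. Oas3, outside the test, had 1 UMI at week 0 and 17 at week 5, a ratio of 18.9 (2.96 to 789); these intervals cover counting error only. Oasl1, which lacks synthetase activity, had 2.19 and 0.222 CPM at week 0 against 8.16 and 12.9 CPM at week 5 (log2 fold change 3.45, SE 0.65), and its call was lost without week 0 replicate 2 (adjusted p = 0.0787) and without the Rtp4-led cluster (adjusted p = 0.109). Eif2ak2, the RNA-activated kinase PKR that halts translation, was already at 39.5 and 54.0 CPM at week 0 and rose to 113 and 93.1 CPM (log2 fold change 1.12, SE 0.20). Isg20, an RNA exonuclease, had 3.07 and 4.89 CPM at week 0 against 14.0 and 8.09 CPM at week 5 and was not called (log2 fold change 1.41, SE 0.43, edgeR adjusted p = 0.0854), but was called without week 5 replicate 2 (adjusted p = 0.0253) and with the Spp1-led cluster (adjusted p = 0.0472).

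The cytosolic RNA sensors changed less. Dhx58 (LGP2) rose from 6.14 and 9.995 CPM to 24.1 and 21.7 CPM, a log2 fold change of 1.44 (SE 0.30). Ifih1 (MDA5) rose from 18.9 and 23.3 CPM to 45.4 and 34.2 CPM (log2 fold change 0.90, SE 0.24, edgeR adjusted p = 0.0381). The call of Ifih1 was lost without week 0 replicate 1 (adjusted p = 0.143), without week 0 replicate 2 (adjusted p = 0.0695) and without week 5 replicate 1 (adjusted p = 0.409). Ddx58 (RIG-I) had 38.6 and 35.8 CPM at week 0 against 60.7 and 43.0 CPM at week 5 and was not called (log2 fold change 0.49, SE 0.22, edgeR adjusted p = 0.384).

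Among the genes that act on virions at membranes or on nucleotide pools, 4 of 5 rose. Bst2 (tetherin), which holds budding virions to the cell surface, was the highest of these genes at week 0 apart from Samhd1 in replicate 1, with 107 and 141 CPM, and stood at 344 and 301 CPM at week 5 (log2 fold change 1.38, SE 0.21, edgeR adjusted p = 0.00013). Ifitm3, which blocks the fusion of viruses in endosomes, rose from 7.89 and 18.9 CPM to 200 and 146 CPM (log2 fold change 3.58, SE 0.27). Ifitm3 stayed below Bst2 in every library; each captured transcript gives 1 UMI at its 3′ end whatever its length. Rsad2 (viperin), which makes a chain-terminating nucleotide, had 2.63 and 3.33 CPM at week 0 against 46.7 and 30.2 CPM at week 5 (log2 fold change 3.63, SE 0.34). Cmpk2, a nucleotide kinase encoded beside Rsad2, had 0 and 1.78 CPM at week 0 against 6.53 and 7.72 CPM at week 5; its call (edgeR adjusted p = 0.0296) was lost without week 0 replicate 1 (adjusted p = 0.118), without week 5 replicate 1 (adjusted p = 0.0654) and without week 5 replicate 2 (adjusted p = 0.139). Samhd1, which hydrolyses deoxynucleotides, had the smallest difference of the list, with 123 and 107 CPM at week 0 against 135 and 153 CPM at week 5 (log2 fold change 0.33, SE 0.19, edgeR adjusted p = 0.682).

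All 4 genes of the ADP-ribosylation group rose, each by a modest amount from a substantial week 0 level. Parp14, an ADP-ribosyltransferase of macrophages, had 97.4 and 74.0 CPM at week 0 against 222 and 165 CPM at week 5 (log2 fold change 1.19, SE 0.21); its call was lost without week 0 replicate 2 (adjusted p = 0.0517). Dtx3l, a ubiquitin ligase that pairs with Parp9, had 43.0 and 49.3 CPM at week 0 against 91.7 and 87.2 CPM at week 5. Parp9 and Parp12 had log2 fold changes of 0.83 (SE 0.21) and 0.89 (SE 0.22). Their calls were among the least stable: that of Parp9 was lost without week 0 replicate 1 (adjusted p = 0.273) and without week 5 replicate 1 (adjusted p = 0.124), and that of Parp12 without week 0 replicate 2 (adjusted p = 0.419) and without week 5 replicate 1 (adjusted p = 0.173).

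The Schlafen genes, which restrain proliferation and translation in immune cells, all rose, and from unequal starting levels. Slfn2 had 29.0 and 39.3 CPM at week 0 against 223 and 208 CPM at week 5 (log2 fold change 2.63, SE 0.21, edgeR adjusted p = 1.0e-08). Slfn5 had 14.9 and 11.1 CPM at week 0 against 120 and 92.0 CPM at week 5 (log2 fold change 3.07, SE 0.24). Slfn8 was already at 92.6 and 77.96 CPM at week 0 and stood at 155 and 163 CPM at week 5 (log2 fold change 0.91, SE 0.19); its call was lost without week 0 replicate 2 (adjusted p = 0.141).

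Of the remaining induced genes, 6 of 7 tested rose. Ifi27l2a, which encodes a small mitochondrial protein, was the most abundant gene of the list at week 5, with 469 and 282 CPM against 21.1 and 24.7 CPM at week 0 (log2 fold change 4.02, SE 0.26, edgeR adjusted p = 4.3e-10). Rtp4, a receptor chaperone, rose from 14.5 and 8.885 CPM to 127 and 104 CPM (log2 fold change 3.38, SE 0.25). Ifi44 had no UMI in the week 0 libraries and 36 and 22 UMIs at week 5, which is at least 24.6-fold and 17.8-fold above a floor of 3 UMIs over the week 0 libraries. Ifi27l2a, Rtp4 and Ifi44 thus differed widely in level at week 5, and none was above 25 CPM at week 0. Ifi47, an interferon-induced GTPase outside the test, had 1 and 4 UMIs at week 0 and 10 and 11 at week 5. Sp100, a nuclear body protein, and Xaf1, a binding partner of the apoptosis inhibitor XIAP, had log2 fold changes of 2.23 (SE 0.22) and 1.99 (SE 0.23), and Phf11d of 1.17 (SE 0.22). Ifi35 had 31.6 and 43.8 CPM at week 0 against 51.6 and 64.4 CPM at week 5 and was not called (log2 fold change 0.59, SE 0.21, edgeR adjusted p = 0.199).

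The rest of the interferon pathway moved in part. Among the STAT and IRF factors, Stat2 (log2 fold change 1.11, SE 0.22), Irf9 (0.94, SE 0.19) and Irf7 (2.999, SE 0.28) rose, and 0 factors fell. Stat2 and Irf9 encode parts of ISGF3, and Irf7 drives interferon genes. Irf7 was at 4.82 and 5.55 CPM at week 0 against 44.1 and 40.8 CPM at week 5. None of the 7 receptor chains and kinases was called in edgeR, at an unadjusted p of 0.165 or above; Ifnar1, a chain of the type I receptor, stood at 90.4 and 91.5 CPM at week 0 against 106 and 106 CPM at week 5. Of 8 tested sensors upstream of interferon, Zbp1, which binds left-handed nucleic acid, rose (log2 fold change 3.25, SE 0.42), and the other 7 did not pass. Of 9 tested genes in a list of brakes of the pathway, 0 were called. That list also held Uba7 and Ube2l6, which serve the coupling of ISG15. It did not hold Usp18, which also restrains the interferon receptor and rose, as given above. Socs1, which blocks JAK kinases, stood at 7.90 and 7.33 CPM at week 0 against 11.1 and 9.56 CPM at week 5 (edgeR adjusted p = 0.857). Within that list Adar, an RNA-editing enzyme, had the only unadjusted edgeR p under 0.05 (0.0083, adjusted p = 0.165). Of the 11 interferon gene names searched, 0 were found in the tables.

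How many microglia carried these transcripts was described on cells thinned to 1000 UMIs, leaving out 145 and 69 shallower cells at week 0 and 60 and 100 at week 5. Rsad2, used below to pick cells, was left out, so that 36 genes remained. At least 1 of the 36 was found in 53.3% and 52.3% of microglia-like cells at week 0 and in 82.7% and 79.5% at week 5. The exact 95% intervals were 49.7 to 56.9% and 48.9 to 55.8% at week 0, and 79.5 to 85.6% and 76.3 to 82.4% at week 5. These intervals, like those on shares of cells below, cover the sampling of cells within a library and not the spread between libraries. On the share of thinned cells with at least 1 of the genes, the intervals of both week 0 libraries lay below those of both week 5 libraries. At least 5 of the 36 were found in 0.926% and 0.722% of cells at week 0 and in 13.5% and 11.7% at week 5. The median cell held 1 of the genes at week 0 and 2 at week 5. Without thinning, at least 1 gene was found in 72.0% and 88.3% of cells at week 0 and in 94.5% and 90.5% at week 5. There the intervals of week 0 replicate 2 (86.1 to 90.4%) and week 5 replicate 2 (88.2 to 92.4%) overlapped. No cell class here is expected to lack these genes altogether; among the few other cells, 42.9% of 14 choroid plexus or ependymal cell-like cells of week 5 replicate 1 and 36.4% of 11 oligodendrocyte-like cells of week 5 replicate 2 had at least 1 at the same 1000 UMIs.

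**Figure D2:**
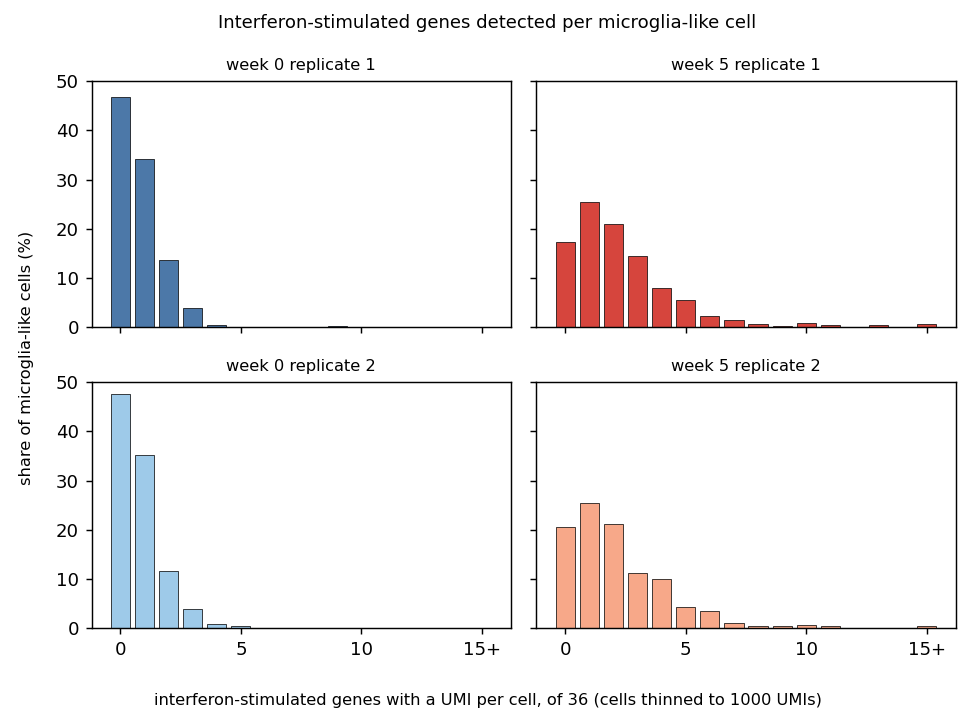
Share of microglia-like cells (vertical axis, %) by the number of interferon-stimulated genes with a UMI in the cell (horizontal axis, of 36, with 15 or more in the last bar), 1 panel per library, each cell thinned to 1000 UMIs. Cells with at least 5 genes made up 0.926% and 0.722% at week 0 and 13.5% and 11.7% at week 5.

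Single genes differed in how widely they were seen. Over 37 genes the median share of thinned cells with a UMI was 0.926% and 0.963% at week 0 and 5.23% and 4.53% at week 5, and 32 of the 37 had both week 5 shares above both week 0 shares, against 14.4% of the 14286 genes seen in these cells. Ifi27l2a was seen in 1.32% and 1.32% of thinned cells at week 0 and in 21.4% and 15.3% at week 5. Bst2 was seen in 7.41% and 11.8% of cells at week 0 and in 21.4% and 19.4% at week 5. The share of Ifi27l2a, much lower at week 0, matched that of Bst2 in week 5 replicate 1 and stayed below it in week 5 replicate 2. Slfn2 went from 2.12% and 3.61% to 14.6% and 14.99%, and Ifitm3 from 0.529% and 0.722% to 12.2% and 9.19%. Oasl2 was in 0.397% and 0.241% of cells at week 0 and in 7.77% and 7.92% at week 5. Of the IFIT genes, Ifit1 was in 2.54% and 1.13% and Ifit3 in 4.28% and 4.67% of thinned cells at week 5. Without thinning these shares were 5.79% and 2.85% for Ifit1 and 14.2% and 11.3% for Ifit3. The tenth of cells with the most UMIs of the 36 genes held 41.4% and 44.4% of them at week 0 and 45.2% and 42.8% at week 5 without thinning. In thinned cells it held 42.3% and 40.2% at week 0 and 38.8% and 37.2% at week 5. Thinned cells had 725 and 714 UMIs of these genes in all at week 0, against 1902 and 1887 at week 5. Shares of this kind move with the number of UMIs per cell and are not compared.

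The cells of every microglia-like cluster with at least 10 cells in each library carried more of these transcripts at week 5. Since Rtp4, Slfn2 and Xaf1 were among the leading genes of 1 cluster, levels by cluster are a description. In the Rtp4-led cluster, which held 26 and 25 cells at week 0 and 367 and 255 at week 5, the 36 genes summed to 1012 and 2306 CPM at week 0 against 3464 and 3067 CPM at week 5 (CPM per cluster is without TMM scaling). In the Fam110a-led cluster, rich in the homeostatic gene P2ry12 and mostly of week 0 cells, they summed to 795 and 838 CPM at week 0 and 1567 and 1667 CPM in the 16 and 14 cells of week 5. The Slc2a5-led cluster had 873 and 977 CPM at week 0 against 1496 and 2164 CPM at week 5. In both of these clusters the week 5 values lay above the week 0 values and below those of the Rtp4-led cluster. The 2 Gm43221-led clusters, of low depth (median 1003 to 1361.5 UMIs per cell), stood at 1115 and 855 CPM (the larger) and 905 and 684 CPM (the smaller) at week 0. At week 5 they reached 3140 and 2591 CPM and 3072 and 2166 CPM, so levels near those of the Rtp4-led cluster were also seen outside it. The Ccl4-led cluster, nearly all of week 5, had 2400 and 2729 CPM. With all cells of the Rtp4-led cluster left out, 20 of 32 genes were called higher and 0 lower, against 2.84% and 0.505% of 10092 genes, and the median log2 fold change was 1.62. The calls of Bst2 (adjusted p = 0.078), Dhx58 (0.155), Ifih1 (0.185), Parp9 (0.252) and Phf11d (0.0898) were lost there, beside those of Ifit1, Ifit3b and Oasl1 given above. The Rtp4-led cluster was chosen because its summed level of the 36 genes was the highest of the microglia-like clusters. The refit is therefore a description. Leaving it out cut the UMIs of the class from 3234829 and 2738515 to 830608 and 1268818 at week 5. At week 0 they went from 2221989 and 4415876 to 2062951 and 4284485. The part of depth in the lost calls was not tested.

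**Figure D3:**
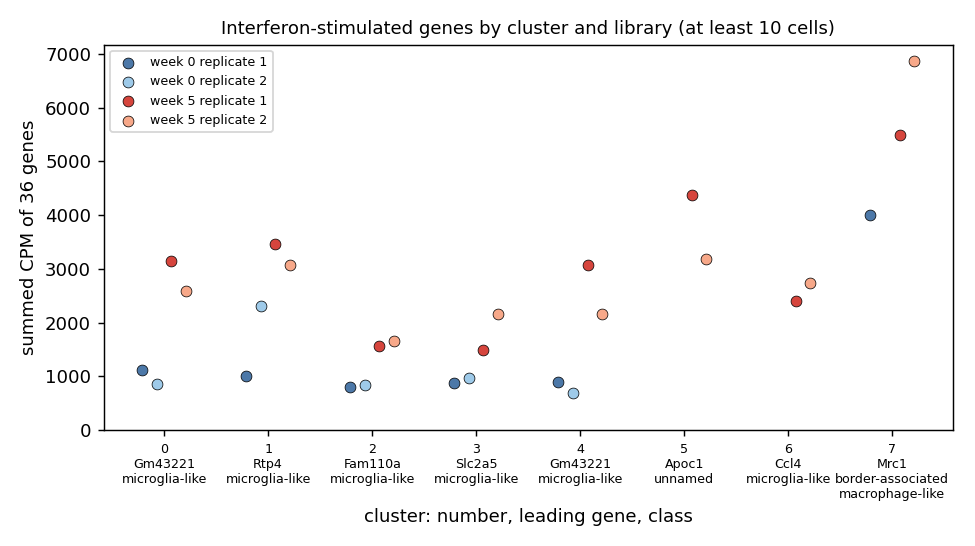
Summed CPM of 36 interferon-stimulated genes (vertical axis) in each cluster with at least 10 cells in a library (horizontal axis: number, leading gene and class), 1 point per library. Week 5 points lie above week 0 points in each of the 5 microglia-like clusters that held at least 10 cells in every library.

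Outside the microglia-like class the level was highest in border-associated macrophage-like cells, which line vessels and meninges. Their 36 genes summed to 4012 CPM in 21 cells of week 0 replicate 1, 4399 CPM in 5 cells of week 0 replicate 2, and 5493 and 6864 CPM in 33 and 41 cells at week 5. Even their week 0 values thus exceeded the week 5 sums of the microglia-like cells, 3206 and 2742 CPM on the same scale. In week 0 replicate 2, however, 1 of the 5 cells held 59.5% of their UMIs of the 36 genes. The unnamed Spp1-led cells, found almost only at week 5, had 4372 CPM in 223 cells and 3186 CPM in 47 cells. With these cells added to the microglia-like class, 28 of 36 genes were called higher and 0 lower, against 3.14% and 0.352% of 11066 genes, with a median log2 fold change of 2.80. Slfn8 (edgeR adjusted p = 0.0859), Ifih1 (0.0564), Parp9 (0.0544) and Parp12 (0.0731) lost their calls there, and Isg20 gained one. The choroid plexus or ependymal cell-like cells of week 5 replicate 1 had 943 CPM (14 cells) and the oligodendrocyte-like cells of week 5 replicate 2 had 1066 CPM (14 cells). Differences between these classes were not tested.

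Cells with at least 1 UMI of Cxcl10, a chemokine induced by interferon, or of Rsad2 were then set apart to describe how far the response was concentrated in them. They are called positive cells here. Among microglia-like cells, 5 of 901 (0.555%) and 7 of 900 (0.778%) were positive at week 0, and 46 of 691 (6.66%, exact 95% interval 4.91 to 8.78%) and 39 of 807 (4.83%, 3.46 to 6.55%) at week 5. Rsad2 picked 45 of the 46 and 38 of the 39; Cxcl10 was in 8 and 2 cells. Having a UMI of either depends on depth: positive cells had a median of 6713 and 5550 UMIs at week 5 against 4868 and 1952.5 for the others. The few positive cells of week 0 had 1351 UMIs against 1500.5 in replicate 1, and 13656 against 3903 in replicate 2. In cells thinned to 1000 UMIs the positive share was 0.265% and 0% at week 0 (0 of 831, exact 95% upper bound 0.443%) and 3.17% and 2.26% at week 5. At week 5, 73.9% and 64.1% of positive cells lay in the Rtp4-led cluster, against 51.6% and 29.9% of the others. Their summed monocyte markers were 150 and 204 CPM, against 63.7 and 37.0 CPM in the other microglia-like cells, with 6 of 11 markers at 0 in each library. The part of these in the result was not tested. Outside the class, 46 of 223 cells (20.6%) of the Spp1-led cluster were positive in week 5 replicate 1. In week 5 replicate 2 they were 4 of 47 (8.51%). The cells of this cluster had a median of 13449 and 5246 UMIs, and they are not in the shares of UMIs given below.

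Positive cells were rich in the list as a whole, but most of its captured UMIs lay in the other cells. At week 5 the positive cells held 27.0% and 21.1% of the UMIs of the 36 genes, against 9.27% and 7.33% of all UMIs. The 36 genes summed to 9352 and 7897 CPM in positive cells and 2578 and 2334 CPM in the others, 3.63-fold and 3.38-fold apart. At week 0 the few positive cells held 6.63% and 10.2% of the UMIs of the 36 genes, and stood at 14336 and 4050 CPM against 886 and 885 CPM in the others. The other cells of week 5 were thus well above the other cells of week 0, and 81.8% and 78.4% of them held at least 1 of the 36 genes at 1000 UMIs against 53.1% and 52.2% at week 0. At least 5 of the genes were in 10.6% and 9.13% of the other cells at week 5 and in 0.664% and 0.485% at week 0. The share in positive cells moves with depth. With cells thinned to 1000 UMIs, 20 and 16 cells were positive at week 5 and held 13.5% and 11.1% of the UMIs of the 36 genes. The other cells may thus include cells that express Rsad2 or Cxcl10 without a captured UMI.

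The genes fell along a range from concentrated to broad. Of the 31 with a mean of at least 10 CPM at week 5, 23 were at least 2-fold higher in positive cells in both week 5 libraries, against 96 of 8657 genes (1.11%) at that level. Since cells were picked on Rsad2, which belongs to the same response, these ratios are a description with no test. The median ratio of the 31 was 3.04 and 3.16, and that of all 8657 genes was 0.910 and 0.925. Ifit1, Ifit2 and Ifit3b, with Oasl1, had the highest ratios of the 31: Ifit1 was at 357 and 115 CPM in positive cells and 14.0 and 6.70 CPM in the others, 25.6-fold and 17.1-fold, Ifit3b was 18.9-fold and 19.5-fold higher, and Ifit2 11.0-fold and 16.4-fold. Oasl1 was 12.5-fold and 50.6-fold higher on 25 and 35 UMIs. Ifi47 and Oas3 had the other highest ratios on few UMIs: 9 of 10 and 8 of 11 for Ifi47, and 4 of 5 and 6 of 12 for Oas3, lay in positive cells. At the other end were Ifi35 (1.34-fold and 1.54-fold), Parp9 (1.95-fold and 1.35-fold), Samhd1 (1.504-fold and 1.77-fold), Dhx58 (2.09-fold and 1.70-fold) and Xaf1 (2.08-fold and 1.98-fold). Ifi27l2a, the most abundant, was at 948 and 668 CPM in positive cells and 393 and 250 CPM in the others, 2.41-fold and 2.67-fold. Of the 36 genes, 8 and 9 had at least 50% of their week 5 UMIs in positive cells, and 15 had under 25% there in both libraries.

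**Figure D4:**
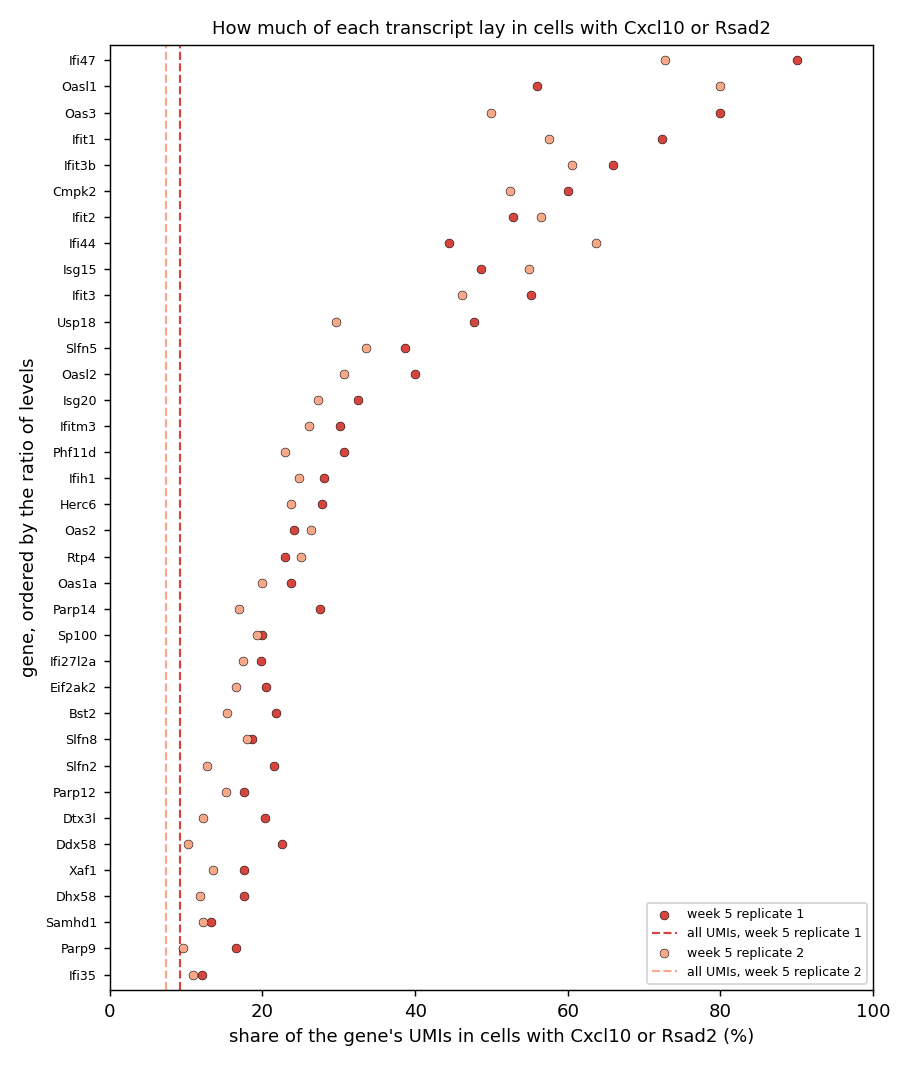
Share of each gene's UMIs that lay in microglia-like cells with a UMI of Cxcl10 or Rsad2 (horizontal axis, %), for 36 genes ordered by their ratio of levels, 1 point per week 5 library; dashed lines give the share of all UMIs in those cells, 9.27% and 7.33%. The IFIT genes, Oasl1 and Isg15 lie near 50% or above. At the low end, Ifi35, Parp9 and Samhd1 lie to the right of the dashed line of each library.

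Several of the concentrated genes already lay mostly in the few positive cells of week 0. Over the 2 week 0 libraries, 12 positive cells of 1801 held 22 of 27 UMIs of Ifit1, 21 of 26 of Oasl2, 45 of 60 of Ifit2 and 11 of 14 of Ifit3b. By contrast they held 34 of 877 UMIs of Bst2 and 13 of 159 of Ifi27l2a. Oasl2 changed in this respect between the weeks: at week 5 positive cells held 39.9% and 30.7% of its UMIs.

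The comparison of the weeks was therefore repeated on microglia-like cells with no UMI of Cxcl10 or Rsad2. Such cells may still express either gene without a captured UMI, so this fit cannot separate responding cells from others. Of 31 genes that passed the filter, 23 were higher at week 5 and 0 lower in edgeR, where 2.42% of 10599 genes were called higher. All 23 were also called in the full class. The median log2 fold change was 1.92, and the log2 fold change was smaller than in the full class for 25 of the 31, with a median change of -0.10. Ifi27l2a, Ifitm3, Rtp4, Slfn5 and Slfn2 had similar values in both sets. Without positive cells their log2 fold changes were 3.93 (SE 0.26), 3.48 (SE 0.25), 3.26 (SE 0.26), 2.95 (SE 0.28) and 2.55 (SE 0.21). They were not equally spread: positive cells held 38.7% and 33.6% of the week 5 UMIs of Slfn5, against 19.7% and 17.4% for Ifi27l2a. In the cells without Cxcl10 or Rsad2, Ifi27l2a stood at 21.2 and 22.4 CPM at week 0 against 414 and 251 CPM at week 5. Oasl2 and 3 of the 4 IFIT genes, most of whose week 0 UMIs lay in positive cells, had larger values than in the full class by more than 0.5. Oasl2 had 1 and 4 UMIs left at week 0 and 173 and 160 at week 5 (log2 fold change 6.31, SE 0.38, against 4.52 in the full class), and Ifit2 had 3 and 12 UMIs at week 0 and 82 and 40 at week 5 (log2 fold change 3.34, SE 0.42). Ifit1 had 41 and 17 UMIs at week 5 against 3 and 2 at week 0; without week 5 replicate 1 its call (adjusted p = 0.152) and those of Ifit3b (adjusted p = 0.252) and Oas2 (adjusted p = 0.0765) were lost. Ifih1, Parp9 and Parp12 were called in the full class and not here, with edgeR adjusted p of 0.225, 0.0571 and 0.0833; the difference between the 2 fits was not tested. Parp9 was called here without week 0 replicate 2 (adjusted p = 0.0152) and Parp12 without week 0 replicate 1 (adjusted p = 0.00955). Dtx3l was lost without week 0 replicate 1 (adjusted p = 0.0777), Parp14 and Phf11d without week 0 replicate 2 (adjusted p = 0.0591 and 0.0638), and Slfn8 without week 0 replicate 2 (adjusted p = 0.282) or week 5 replicate 2 (adjusted p = 0.0536). With cells thinned to 1000 UMIs, 15 of 27 were called higher, against 1.07% of 8225 genes.

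**Figure D5:**
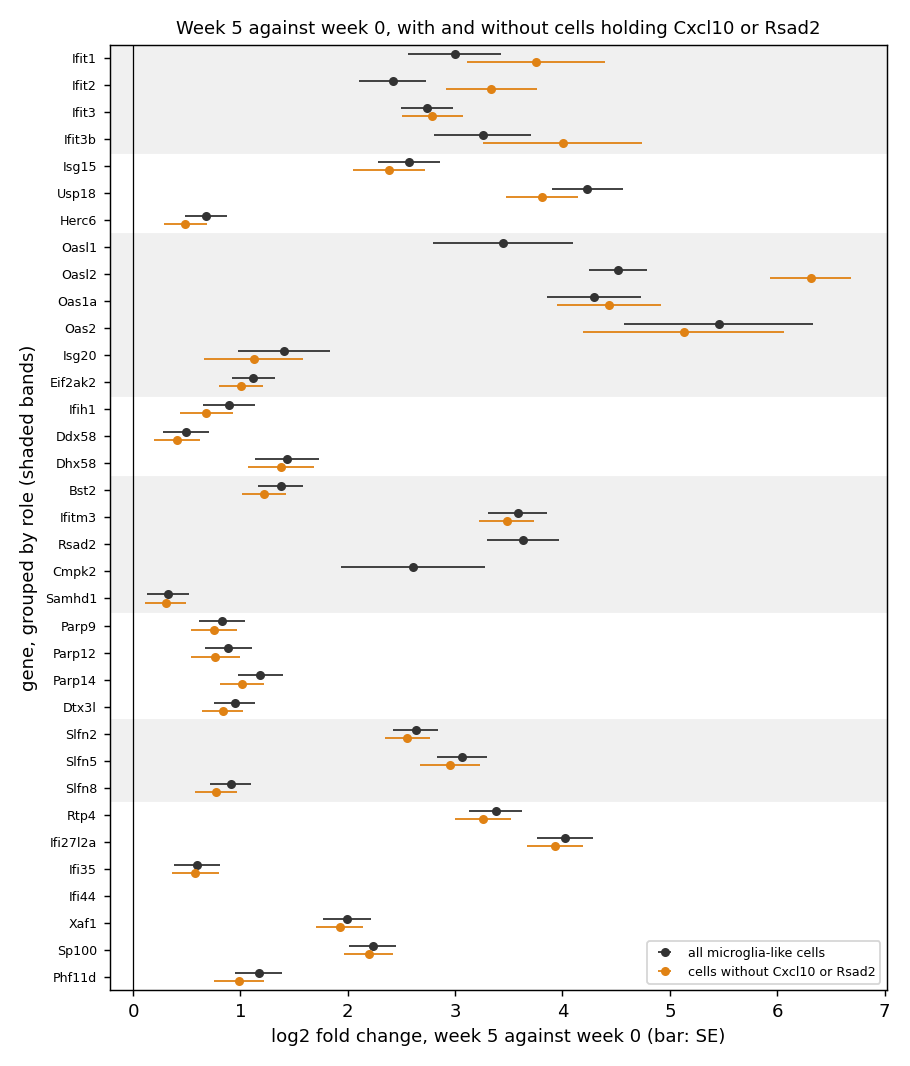
Log2 fold change of week 5 against week 0 (horizontal axis, bars show the SE) for each interferon-stimulated gene in all microglia-like cells (dark) and in those without Cxcl10 or Rsad2 (orange); Ifi44, with no UMI at week 0, is not drawn. Orange points of Ifit1, Ifit2, Ifit3b and Oasl2 lie to the right of the dark ones, and those of Oasl1, Rsad2 and Cmpk2 are missing because the genes were not tested in those cells.

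Several of the genes sit together in the genome (mm10, GENCODE vM21), where 16 of the 37 had another within 100 kb. Ifit2 (chr19:34550694-34576419), Ifit3 (chr19:34583531-34588731), Ifit3b (chr19:34607970-34613401) and Ifit1 (chr19:34640871-34650009) follow each other on the plus strand of chromosome 19. Rsad2 (chr12:26442746-26456452, minus strand) and Cmpk2 (chr12:26469204-26479837, plus strand) lie 12.8 kb apart, and Oasl2 and Oasl1 11.0 kb apart on chromosome 5. Dtx3l and Parp9 overlap on opposite strands of chromosome 16, and the sources used here do not say whether reads were counted by strand, so their counts may not be separate. Near-identical ends make other counts uncertain, since the libraries read the 3′ end: over the last 500 bases of its transcript Ifit3 was 94.6% identical to Ifit3b, and Oas1a was 98.0% identical to Oas1g. Ifi27l2a matched Ifi27l2b at 90.7% over 236 bases, and Isg15 and Ifitm3 matched processed pseudogenes at 94.7% over 338 bases and 91.1% over 303 bases.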

How the data were processed

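The authors deposited UMI counts per gene and barcode for 4 single-cell libraries (10x Genomics 3′ v3.1 chemistry, per the labels' protocols). The submitters' processing notes name STAR, Cell Ranger 3.0.0, Seurat 4 and mm10, with no roles given; how barcodes were chosen and whether reads were counted by strand are not given in the sources used here. Barcodes under 500 genes or above 10% mitochondrial UMIs were removed, and the rest were scored for doublets (0.563% removed) and clustered in scanpy 1.11.5 on 2000 variable genes, 30 components and 15 neighbours at resolution 1. Clusters were named from marker lists.

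Counts were summed per library over microglia-like cells (2221989 to 4415876 UMIs) and tested with edgeR 4.0.16 (quasi-likelihood, TMM, filterByExpr), with Benjamini-Hochberg adjustment over all genes tested at 0.05; limma 3.58.1 (voom) and DESeq2 1.42.0 were alternatives. The scripts were tested on simulated data. Named with values in each library were the 10 genes with the highest level at week 5, the 10 with the largest change among those called, all genes not called, and the 5 highest and 5 lowest ratios between positive and other cells; further genes were added by role. The genes and lists were chosen with earlier results of these data known. A gene of the STAT and IRF list is not reported here.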

Additional observations from a re-analysis of the deposited data

How the results depend on the processing

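No direction reversed under any alternative run. Of the 30 genes called in microglia-like cells, 14 were called under all 16 alternatives, Ifi44 and Oas2 wherever they passed the filter, and of the 23 called without Cxcl10 or Rsad2 cells, 14 under all 13. Thinning to 1000 UMIs left fewer counts and gave 18 calls in the list and 91 over all genes, and 15 and 88 without positive cells. Leaving out 1 library at a time moved the calls over all genes from 351 to between 206 and 372. The median log2 fold change was 2.89 when all libraries were held to the same ceiling of genes in a cell and 1.62 without the Rtp4-led cluster; without positive cells it was 2.42 over all cell classes, an alternative chosen after seeing the data, as were those with the Spp1-led cluster and without the 2 Gm43221-led clusters. For these values the cause was not tested. The share of the list's week 5 UMIs in picked cells was 11.4% and 3.45% with Cxcl10 alone, 18.6% and 10.5% with at least 2 UMIs, and 13.5% and 11.1% in thinned cells. At 3-fold instead of 2-fold, 15 of 31 genes passed, against 44 of 8657 genes (0.508%).

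With the replicate number as a replicate block, 30 of 35 genes were called (331 over all genes). Without positive cells 24 of 31 were called, all higher, with Parp9 added (edgeR adjusted p = 0.0401). Over all 10599 genes tested there, 253 were called higher and 35 lower. The deviations of the 2 pairs correlated at -0.094, and nothing in the labels says that the numbers pair libraries. Depth limits the genes under about 10 CPM, among them Oas2, Oas3, Ifi44, Ifi47 and Cmpk2, which rest on few UMIs at week 0.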
